A study of Homo sapiens with 2 samples.

Results

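RKO cells, a human colon carcinoma line, received either the control siRNA of the study (si-NC) or an siRNA that targets the splicing factor SRSF2 (si-SRSF2), with 1 RNA-seq library in each group. The genes examined here were the neuron navigators NAV1, NAV2 and NAV3 and the promoter-binding proteins GPBP1 and GPBP1L1, all 5 of which were among the 54261 genes in the count table. NAV2 and GPBP1 were chosen by the junction reads of a cassette exon in each, which the study lists among the exons whose inclusion differed between these same libraries, and NAV1, NAV3 and GPBP1L1 were chosen as their paralogues. The gene counts of NAV2 and GPBP1 thus come from the libraries in which their exons were selected, and with 1 library per group no difference had a replicate check and no test was run. Whether any difference came from loss of SRSF2 or from the 2 cultures and libraries cannot be told apart.

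Neuron navigators are large proteins related to UNC-53 of the nematode, which guides migrating cells and growing axons. They bind microtubules, follow the growing plus ends and carry an ATPase domain near their carboxyl terminus, and NAV2 was described as a gene that retinoic acid induces in neuroblastoma cells. GPBP1, also called vasculin, is a nuclear protein that binds GC-rich promoters, and GPBP1L1 is its paralogue. SRSF2 is an SR protein that binds exonic RNA through its RNA recognition motif and affects whether an alternative exon is kept or skipped. The RNA motifs best known for it are CCNG and GGNG.

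The exons were located first. The study's RT-PCR primers for NAV2 and GPBP1 were placed on the transcripts of GENCODE release 44, and each pair bracketed 1 exon that some transcripts carried and others lacked. These primers are shown because they define the exons.

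NAV2-F: agatgagcttgtccaacccg

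NAV2-R: tgacgatgtgctggaaacca

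GPBP1-F: tggatggcgtacacatggaa

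GPBP1-R: tttgtaggtggagcagcagg

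The NAV2 pair gave a product of 308 bp on 1 annotated transcript of NAV2 and of 209 bp on 5 others, among them the MANE transcript, the one chosen as representative of the gene. The GPBP1 pair gave 510 bp on 1 transcript and 450 bp on 4 others, among them the MANE transcript. No transcript of another gene held both primers of either pair. The longer form was therefore the rarer one in the annotation for both genes. The annotation does not say how much of each form RKO cells make, and reads over the exon junctions were not used here.

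**Figure D1:**
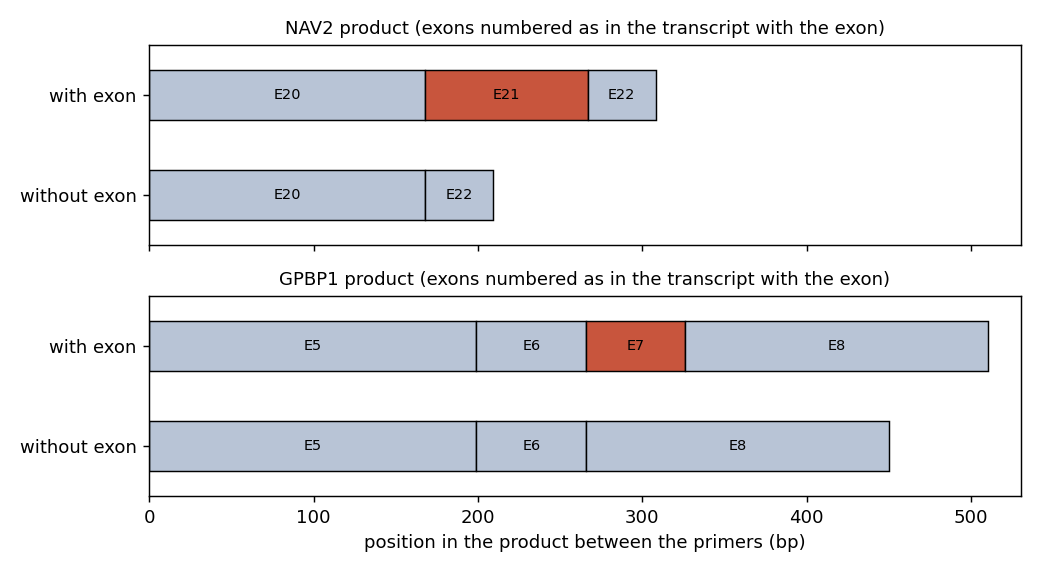
RT-PCR products that the study's primers give on annotated NAV2 and GPBP1 transcripts, drawn to scale in bp, with the alternative exon in red and the other exons (E, numbered as in the longer transcript) in grey. The NAV2 product is 308 bp with and 209 bp without the exon, and the GPBP1 product 510 bp with and 450 bp without it.

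The NAV2 exon lies on GRCh38 at chr11:20056530-20056628 on the plus strand, is 99 bp long and is exon 21 of the 41 exons of the longer NAV2 transcript. The GPBP1 exon lies at chr5:57237113-57237172 on the plus strand, is 60 bp long and is exon 7 of the 13 exons of the longer GPBP1 transcript. Both are coding, and both are shown with 20 bases of intron on each side, the exon in capitals, because they are the stretches whose use sets the isoforms of these genes apart.

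NAV2 exon 21: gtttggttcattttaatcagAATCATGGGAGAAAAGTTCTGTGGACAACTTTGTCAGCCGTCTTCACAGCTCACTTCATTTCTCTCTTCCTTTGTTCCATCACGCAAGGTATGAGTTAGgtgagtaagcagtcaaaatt

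GPBP1 exon 7: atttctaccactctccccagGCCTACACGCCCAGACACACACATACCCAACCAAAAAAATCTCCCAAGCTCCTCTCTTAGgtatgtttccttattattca

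Both exons end their upstream intron with AG and open their downstream intron with GT, the usual splice site bases. Each has a length that is a multiple of 3 and holds no stop codon in its annotated frame. NAV2 exon 21 adds 33 codons and GPBP1 exon 7 adds 20, so the annotated proteins differ by an insertion and not by a new end at these exons. Both exons sit much nearer to the exon before them than to the exon after. The introns are 572 and 5678 bases long around the NAV2 exon and 1080 and 9127 bases long around the GPBP1 exon.

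The letters of the SRSF2 motifs were counted in the transcript sequence, with the motifs allowed to overlap. NAV2 exon 21 held 1 match, a GGNG starting at base 8 of the exon, and GPBP1 exon 7 held 1 match, a CCNG starting at base 11. Of 1505 other annotated internal coding exons of 99 bp, 92.9% held at least 1 match to either motif, and their median was 3. Of 802 others of 60 bp, 80.8% held at least 1, and their median was 2. Both exons thus held fewer matches than the median exon of their length. In NAV2 the exon before held 5 matches in 189 bases and the exon after held 1 in 53. In GPBP1 the exon before held 2 in 67 bases and the exon after held 3 in 185. A match is only a run of letters, and no binding was measured in these libraries.

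The paralogues were compared at the same place. In an alignment of the MANE coding sequences, the junction at which NAV2 exon 21 is inserted fell exactly on an exon junction of both NAV1 and NAV3. In NAV3 it lay between exons 19 and 20, of 189 and 53 bp, the same lengths as the exons next to it in NAV2. In NAV1 it lay between exons 14 and 15, of 171 and 53 bp. Over the 50 coding bases on each side of this junction NAV2 was 73.0% identical to NAV3 and 57.0% to NAV1. None of the 16 annotated NAV3 transcripts or 10 NAV1 transcripts had an exon within that intron. The junction was thus shared by the 3 navigators, and the 99 bp exon was annotated in NAV2 alone.

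GPBP1 and GPBP1L1 showed the same arrangement. The junction at which GPBP1 exon 7 is inserted fell exactly on the junction of exons 7 and 8 of GPBP1L1, of 73 and 194 bp against 67 and 185 bp in GPBP1. Within that intron 1 of the 14 annotated GPBP1L1 transcripts had an exon, which was 142 bp long. It was the last exon of a transcript with no defined coding sequence, and so was not a cassette exon like that of GPBP1. Over the whole coding sequence 64.3% of the aligned bases were identical between GPBP1 and GPBP1L1. For the navigators this was 66.9% between NAV2 and NAV3, 64.9% between NAV1 and NAV2 and 61.9% between NAV1 and NAV3.

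Such distances bear on the counts, because reads that match several genes can be lost or misplaced. No 31-base stretch of any of the 5 MANE transcripts occurred in another of the 5. The share of 31-base stretches found in transcripts of any other gene was 1.20% for NAV1, 0.344% for NAV3, 0.0894% for GPBP1 and 0 for NAV2 and GPBP1L1. Reads of these paralogues were therefore distinct at this length.

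The si-NC library held 19931360 counts and the si-SRSF2 library 14512802. Levels are given in CPM, counts scaled to a common library size by the TMM method, and differences as the log2 of the si-SRSF2 level over the si-NC level with a pseudocount of 0.5 CPM and a 95% Clopper-Pearson interval. These intervals cover counting error only. Of the epithelial markers EPCAM, KRT8, KRT18, CDH1 and KRT19, the first 3 were above 1 CPM in both libraries, and of 6 intestinal markers CDX2 was, while CDX1, KRT20 and LGALS4 were at 0. The targeted gene, SRSF2, was counted 1964 times in si-NC and 713 times in si-SRSF2, which left 49.9% of the control CPM (log2 ratio -0.997, interval -1.13 to -0.88).

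Of the 12620 genes that reached a mean of 1 CPM, 21.0% had an interval above 0 and 26.7% an interval below 0. An interval off 0 was therefore common, and says only that counting error is smaller than the difference between these libraries. Log2 ratios of at least 1 were found for 0.848% of genes and of at most -1 for 0.499%. The middle 50% of all genes, from the 25th to the 75th percentile, lay between -0.19 and 0.15, and the median was -0.02. All 5 genes passed the minimum, and none differed 2-fold. NAV2 and GPBP1 were slightly higher in si-SRSF2, NAV1 and NAV3 were lower, and GPBP1L1 had an interval that held 0. By sign alone 2 were above 0 and 3 below, beside 46.2% and 53.8% of all genes, and their median was -0.03.

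**Figure D2:**
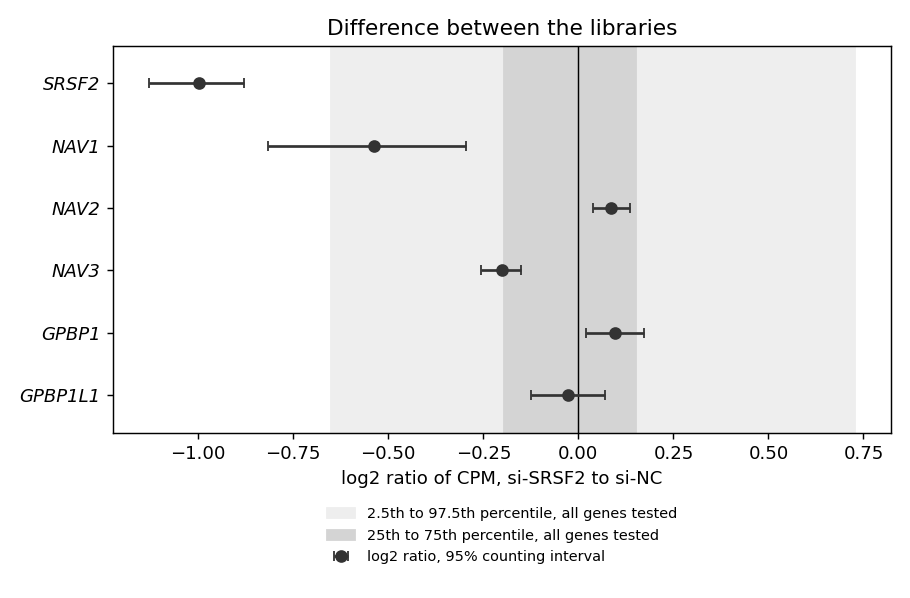
Log2 ratio of CPM (si-SRSF2 to si-NC) for SRSF2 and the 5 genes, 1 library per group, as points with 95% counting intervals. Grey bands give the spread of all 12620 genes tested: NAV2, GPBP1 and GPBP1L1 lie within the middle 50%, NAV3 just below it, and NAV1 at -0.54 lies further below, inside the band that holds 95% of genes.

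NAV2 (ENSG00000166833.23) spans 771 kb of chromosome 11 from 19350724 to 20121601 on the plus strand. It was counted 7932 times in si-NC and 6135 times in si-SRSF2, and its levels were 398 and 423 CPM. Its level in si-SRSF2 was 106% of that in si-NC, a log2 ratio of 0.09 (interval 0.04 to 0.14). The gene total was thus nearly the same in both libraries. Of all genes tested, 66.9% had a lower log2 ratio. Exon 21 amounts to 0.861% of the length of the MANE transcript of NAV2, so the exon alone can add little to the gene's count.

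NAV3 (ENSG00000067798.16), the navigator with the longest gene, spans 888 kb of chromosome 12 from 77324641 to 78213010. It was counted 7535 times in si-NC and 4770 times in si-SRSF2, and its levels were 378 and 329 CPM. The level in si-SRSF2 was 86.9% of that in si-NC, a log2 ratio of -0.20 (interval -0.25 to -0.15). A lower log2 ratio was found for 24.2% of genes, so this difference was of a common size. In si-NC the NAV2 and NAV3 counts were close, and in si-SRSF2 NAV2 was ahead.

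NAV1 (ENSG00000134369.16) lies on chromosome 1 from 201539127 to 201826969. It was the least abundant member, counted 373 times in si-NC and 185 times in si-SRSF2, and its levels were 18.7 and 12.7 CPM. Its level in si-SRSF2 was 68.1% of that in si-NC, a log2 ratio of -0.54 (interval -0.82 to -0.30). NAV1 had the largest difference and the widest interval of the 5 genes, and 4.34% of all genes tested had a lower log2 ratio. Its lowest and highest values over the scalings and pseudocounts tried were -0.55 and -0.49.

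GPBP1 (ENSG00000062194.16) lies on chromosome 5 from 57173948 to 57264679. It was counted 3153 times in si-NC and 2455 times in si-SRSF2, and its levels were 158 and 169 CPM. The level in si-SRSF2 was 107% of that in si-NC, a log2 ratio of 0.10 (interval 0.02 to 0.17). This was close to the value of NAV2, and 68.3% of genes had a lower log2 ratio. Exon 7 amounts to 1.33% of the length of its MANE transcript.

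GPBP1L1 (ENSG00000159592.11) lies on chromosome 1 from 45627304 to 45688113 and is read from the minus strand. It was counted 2046 times in si-NC and 1462 times in si-SRSF2, and its levels were 103 and 101 CPM. The log2 ratio was -0.03 (interval -0.13 to 0.07). No difference between the libraries was detectable at this depth, and the interval leaves room for a level up to these bounds. It stood at the 49.7th percentile, the middle of all genes.

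Levels of different genes were compared per kilobase of the MANE transcript. In si-NC, NAV3 had 37.0 CPM per kb (95% Poisson interval 36.2 to 37.8), GPBP1 35.1 (33.9 to 36.4) and NAV2 34.6 (33.9 to 35.4). NAV3 and GPBP1 had overlapping intervals, as did GPBP1 and NAV2. GPBP1L1 followed with 28.2 CPM per kb, and NAV1 was far below with 1.35. In si-SRSF2 the order was GPBP1 with 37.5, NAV2 with 36.8, NAV3 with 32.2, GPBP1L1 with 27.7 and NAV1 with 0.918, and only the intervals of GPBP1 and NAV2 overlapped. NAV3 thus had the highest value in si-NC, with an interval that overlapped that of GPBP1, and was behind GPBP1 and NAV2 in si-SRSF2. The order depends on the length used: per kilobase of all annotated exons, NAV2 had 26.2 in si-NC and GPBP1 24.4, with NAV3 first at 28.5 and GPBP1L1 at 13.8. In si-SRSF2 this length put NAV2 first at 27.9, ahead of GPBP1 at 26.1 and NAV3 at 24.8.

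**Figure D3:**
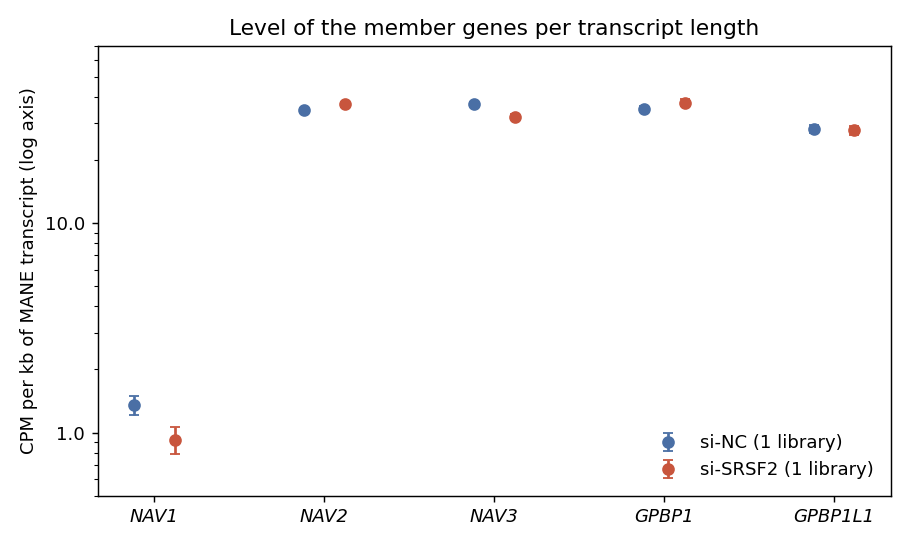
Level of the 5 genes in CPM per kb of the MANE transcript, on a log axis, in the si-NC library (blue) and the si-SRSF2 library (red), with 95% Poisson intervals for counting error. NAV2, NAV3, GPBP1 and GPBP1L1 lie between 27.7 and 37.5, and NAV1 at 1.35 and 0.918.

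The make-up of each family does not depend on how the libraries are scaled. NAV2 made up 50.1% of the 15840 navigator counts in si-NC (95% Clopper-Pearson interval 49.3% to 50.9%) and 55.3% of the 11090 in si-SRSF2 (54.4% to 56.2%). NAV3 made up 47.6% (46.8% to 48.4%) and 43.0% (42.1% to 43.9%). NAV1 made up 2.35% (2.12% to 2.60%) and 1.67% (1.44% to 1.92%). The intervals of si-NC and si-SRSF2 lay apart for each of the 3 navigators, with NAV2 taking a larger share in si-SRSF2 and both paralogues a smaller one. These are not separate results, since a larger share of NAV2 leaves less for its paralogues. Differences beyond counting error were also common, as 47.6% of all genes tested had a log2 ratio with an interval off 0.

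For 1 count of NAV3 there were 1.05 counts of NAV2 in si-NC and 1.29 in si-SRSF2. The ratio of NAV3 to NAV2 in si-SRSF2 was 0.818 times that in si-NC (exact conditional 95% interval 0.779 to 0.860). The ratio of NAV1 to NAV2 was 0.641 times that in si-NC (0.533 to 0.769), and the ratio of NAV1 to NAV3 0.783 times (0.651 to 0.941). The order of the navigators by log2 ratio, NAV2 above NAV3 above NAV1, was thus wider apart than counting error, although the spread between transfections is unknown.

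GPBP1 made up 60.6% of the 5199 counts of its family in si-NC (59.3% to 62.0%) and 62.7% of the 3917 in si-SRSF2 (61.1% to 64.2%). These intervals overlapped. The ratio of GPBP1L1 to GPBP1 in si-SRSF2 was 0.918 times that in si-NC, with an exact conditional interval from 0.842 to just above 1. A shift between these paralogues was therefore not detectable at this depth.

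**Figure D4:**
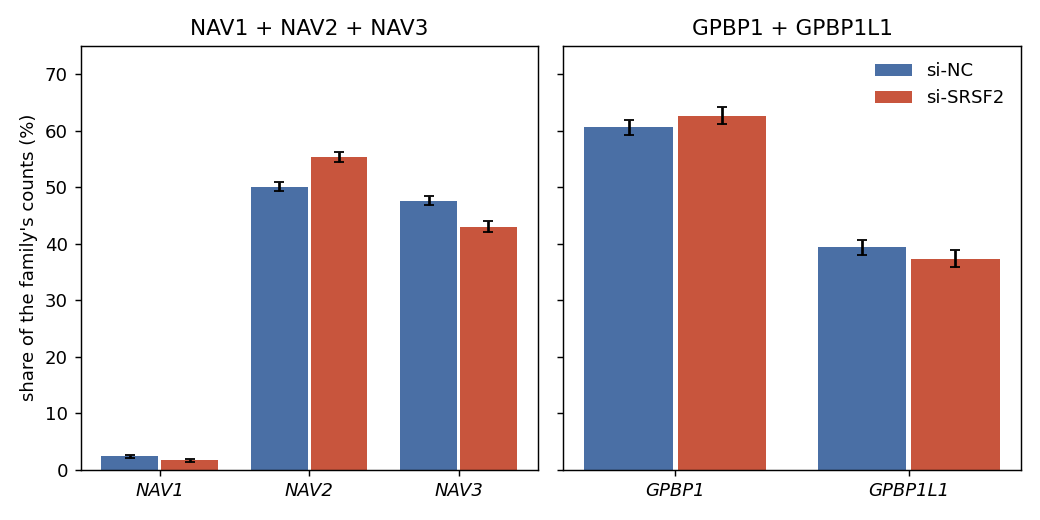
Share of each gene in the summed counts of its family (percent), in si-NC (blue) and si-SRSF2 (red), 1 library each, with 95% Clopper-Pearson intervals. NAV2 takes 50.1% and 55.3% of the navigator counts and NAV3 47.6% and 43.0%, while the intervals of GPBP1 and of GPBP1L1 overlap between the libraries.

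Genes that overlap these loci could add to or take from their counts. The annotation placed 25 genes over the 5 loci, and 13 of them were in the table. The 6 of these within NAV2, among them the antisense RNAs NAV2-AS2, NAV2-AS4 and NAV2-AS5, were at 0 in both libraries, as was IPO9-AS1, which lies antisense to NAV1. For RNAs that poly(A) libraries capture, a count of 0 allows levels of up to 0.151 and 0.207 CPM here, the worth of 3 counts. The 6 within NAV2 include the microRNA genes MIR4486 and MIR4694, for which 0 sets no such bound. RPS10P7, a ribosomal protein pseudogene that overlaps NAV1, had 7 and 12 counts. RPS15AP10 and RPL7AP16, pseudogenes within GPBP1L1, had 43 and 39 counts in si-NC and 20 and 18 in si-SRSF2, far fewer than GPBP1L1. Among neighbours that start within 10 kb, IPO9, an import receptor gene just downstream of NAV1, had a log2 ratio of -0.06 (interval -0.13 to 0.02). TMEM69, which starts beside GPBP1L1 on the other strand, had 1125 and 638 counts and a log2 ratio of -0.36 (-0.50 to -0.22). The pair of genes at the GPBP1L1 promoter thus did not have the same ratio. CCDC17 had 7 and 13 counts.

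Some other genes had nearly the same 2 levels. Over the log2 CPM of the 2 libraries, the 3 genes nearest to NAV2 were SPTAN1, NONO and ATP2A2, and those nearest to GPBP1 were ARFGEF1, CREB1 and MPRIP. For NAV3 they were HNRNPA3, STK4 and ZNF438, for NAV1 SRD5A3, GALK1 and BEST3, and for GPBP1L1 AHSA2, UBE2C and TSC22D2. With 2 libraries this likeness means only a like level and a like ratio.

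Because navigators follow microtubule plus ends, a list of 22 genes of microtubule plus ends was examined next. Of the 21 tested, 5 had an interval above 0, 10 an interval below 0 and 6 an interval that held 0, and none differed 2-fold. Over all genes tested, 21.0% of intervals lay above 0 and 26.7% below, so about as many of the list as of all genes were higher and a larger part was lower. No test was made of this, and the median log2 ratio was -0.09, beside -0.02 over all genes. Intervals are narrower for genes with more counts, and the list was not matched to all genes by level. MAPRE1, the plus-end binding protein EB1 to which many others attach, was higher, at 142 CPM in the control library against 185 in si-SRSF2, a log2 ratio of 0.38 (interval 0.30 to 0.46). DCTN1, the dynactin subunit that links plus ends with dynein, had a log2 ratio of 0.31 (0.23 to 0.40). MAPRE3, which encodes EB3, had 0.28, with an interval of -0.07 to 0.68 that held 0.

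The lowest values in this list were those of SLAIN2, APC and STIM1, with levels given for si-NC first here and in the lists that follow. SLAIN2, which promotes microtubule growth, had 90.4 and 64.2 CPM, a log2 ratio of -0.49 (interval -0.61 to -0.38). APC, the colorectal tumour suppressor that binds microtubule ends and beta-catenin, had 87.3 and 63.0 CPM, a log2 ratio of -0.47 (-0.59 to -0.35). STIM1, a calcium sensor of the endoplasmic reticulum that follows EB1, had -0.38 (-0.53 to -0.25). Genes of the plus-end list were therefore found on both sides of 0.

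Genes of retinoic acid signalling were included because NAV2 is known as a target of it. Of 20 listed, 9 were tested, and RARB, CYP26A1 and STRA6, common targets of retinoic acid, were among the 11 below the minimum. The median log2 ratio was -0.002, with 1 interval above 0, 2 below 0 and 6 that held 0. The shares of all genes were 21.0% above and 26.7% below with a median of -0.02, and neither count of the 9 exceeded them. RARG, a retinoic acid receptor, had 28.2 and 36.3 CPM, a log2 ratio of 0.36 (interval 0.19 to 0.54). RDH10, which makes retinaldehyde from retinol, had 758 and 342 counts, a log2 ratio of -0.68 (-0.88 to -0.50). CYP26B1, which breaks down retinoic acid, had -0.62 (-0.98 to -0.32). CRABP2, a carrier of retinoic acid, had -0.07, and the nuclear receptors NR2F1 and NR2F2 had 0.21 and 0.17, each with an interval that held 0.

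Other factors that bind GC-rich promoters formed the list set beside GPBP1. Of 23 listed, 21 were tested, with 5 intervals above 0, 7 below 0 and 9 that held 0, and a median log2 ratio of -0.07. These counts were near the 21.0% above 0 and 26.7% below 0 of all genes, whose median was -0.02. The highest values were those of ZBTB7A with 0.39 (interval 0.19 to 0.61), PATZ1 with 0.35 (0.17 to 0.54) and KLF11 with 0.34 (0.16 to 0.53). The lowest were those of the zinc finger factors KLF9 with -0.59 (-0.85 to -0.36), KLF10 with -0.36 (-0.46 to -0.27) and KLF6 with -0.36 (-0.42 to -0.29). SP1, the best known of these factors, had -0.07 (-0.15 to 0.01). The value of GPBP1, 0.10, lay between these extremes. None of the 21 differed 2-fold.

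**Figure D5:**
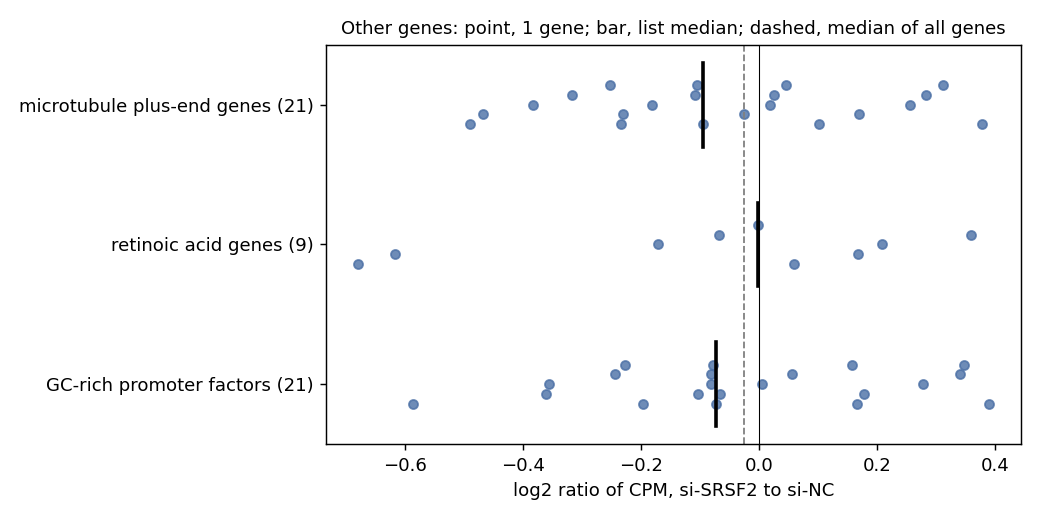
Log2 ratio of CPM (si-SRSF2 to si-NC) of every gene tested in the 3 lists (points, 1 gene each, spread vertically for legibility), with the list medians (black bars) and the median of all 12620 genes (dashed line, -0.02). Each list holds genes on both sides of 0, with medians from -0.09 to -0.002.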

How the data were processed

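RNA-seq of 2 libraries of RKO cells, 1 per group, was analysed. Per the study's methods, stranded poly(A) libraries were read as 150 bp pairs, trimmed, aligned to GRCh38 (HISAT2 2.0.4, per the submitters' processing notes) and counted with HTSeq. The values the authors deposited are raw counts per gene symbol. The HTSeq strand setting is not given in the sources used here, so overlapping and antisense genes are uncertain.

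Library sizes were scaled by TMM in edgeR 4.0.16 under R 4.3.3. Ratios, Clopper-Pearson, Poisson and exact conditional intervals at 95% were computed in SciPy 1.17.1. Of these, the log2 ratios and their Clopper-Pearson intervals were tested on simulated counts that held counting error only. Genes needed a mean of at least 1 CPM. Gene models came from GENCODE release 44 on GRCh38, exon sequences from the GRCh38 genome and primer sequences from the study's supplement. Junction reads and exon inclusion values were not used here. Alignments used Biopython 1.88.

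Named genes were SRSF2, the 5 members, genes overlapping or starting within 10 kb of them, the 3 nearest in level, and the 3 highest and 3 lowest of each list with a mean of at least 5 CPM; RARB, CYP26A1, STRA6, SP1 and the cell type markers were named beside these. The result for 1 further gene list is not reported here. Members and lists were chosen with earlier results of these data known. The alternatives scaled the libraries by DESeq2 1.42.0, by upper quartiles or by their totals, with and without mitochondrial and the 20 most abundant genes, or used a pseudocount of 0.1 or 2 CPM or another minimum.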

Additional observations from a re-analysis of the deposited data

How the results depend on the processing

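No paired analysis was possible because si-NC and si-SRSF2 had a single library each, and leaving out a replicate was not possible. The log2 ratios of the 5 genes stayed within their counting intervals under every scaling and pseudocount tried. The ranges were 0.09 to 0.11 for NAV2, -0.20 to -0.18 for NAV3, 0.10 to 0.12 for GPBP1 and -0.03 to -0.003 for GPBP1L1. The list medians ran from -0.09 to -0.07 for plus-end genes, -0.07 to -0.05 for GC-rich promoter factors and -0.002 to 0.05 for retinoic acid genes, which changed sign. Genes at least 2-fold higher or lower, 107 and 63, numbered 185 and 120 with a pseudocount of 0.1 CPM, 28 and 17 with 2 CPM, 239 and 109 without a filter on low counts and 26 and 16 where the minimum was 5 CPM. A pseudocount shrinks the ratios of low genes by design, and each minimum sets how many genes enter. Depth limits NAV1 most, with 373 and 185 counts.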
